A study of Mus musculus with 7 samples.

Results

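Brush-border enzyme and structure genes are described here in ATAC-seq peak lists, which give the positions of open chromatin, from the epithelium of the mouse embryonic gut. The 10 genes were chosen by function: Vil1, Mgam, Sis, Lct, Dpp4, Enpep, Anpep, Mep1a, Mep1b and Cubn. Earlier results of these data were known when they were chosen. Peaks of the 7 lists on chromosomes 1 to 19 and X that overlap each other were joined, which gave 326695 merged regions. Each region was given to the protein-coding gene with the closest body, up to 100 kb away, and 185 regions fell to the 10 genes. A library is said to have a region where at least 1 of its peaks lies in it.

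Each group was a single library. At the labelled age E13 (E13.5 in the protocol) stomach and intestine came from embryos with ShhCre and a R26YFP/+ reporter, that is, a Cre made under the control of Shh, a gene of the gut epithelium. These organs were digested with trypsin and sorted, with 50000 cells from 3 to 4 pooled embryos. At E16 (E16.5 in the protocol) forestomach, hindstomach, proximal small intestine and colon came from embryos of the same ShhCre and R26YFP/+ genotype. Forestomach epithelium was freed with dispase, hindstomach epithelium with 10 mM EDTA, and small intestine and colon epithelium with 5 mM EDTA. The seventh library was E16 stomach of a Sox2 knockout (KO), for which the labels read here give no other allele, stomach part or isolation. With 1 library per group there was no replicate and no test between groups. Intervals are 95% Wilson intervals that cover counting error alone, and regions near the same gene are not independent.

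The brush border is the carpet of microvilli on the apical face of absorptive intestinal cells. Villin and its partners bundle the actin core of each microvillus, and the membrane carries disaccharidases and peptidases that finish the digestion of sugars and proteins. Several of these genes are also used in the kidney proximal tubule. HNF1, HNF4, CDX and GATA factors are known activators of brush-border genes, and SOX2 is a factor of the foregut.

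The promoter windows show where peaks met gene starts. RefSeq (GRCm38.p6) gave the 300 bases from 250 before to 50 after the start of 9 of the 10 genes, all but Mep1b. The 5 below had a peak in at least 1 wild-type library and are written 5′ to 3′ on the strand of the gene. Capitals mark matches to 6 short motifs: GTTAAT for HNF1, AAGTCCA for HNF4, AGATAA for the factors of the Gata family, TTTATNG for CDX, ACAATG for SOX and TATAAA for the TATA box. Both strands were searched, and the reverse of the TATA box can overlap the CDX motif.
Vil1 (chr1:74409134-74409433, plus strand): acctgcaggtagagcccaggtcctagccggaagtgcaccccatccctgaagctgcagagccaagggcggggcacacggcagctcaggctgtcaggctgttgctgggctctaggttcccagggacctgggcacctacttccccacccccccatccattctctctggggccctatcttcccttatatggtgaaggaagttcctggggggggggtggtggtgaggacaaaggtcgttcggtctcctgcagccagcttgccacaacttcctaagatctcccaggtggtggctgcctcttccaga
Sis (chr3:72967814-72968113, minus strand): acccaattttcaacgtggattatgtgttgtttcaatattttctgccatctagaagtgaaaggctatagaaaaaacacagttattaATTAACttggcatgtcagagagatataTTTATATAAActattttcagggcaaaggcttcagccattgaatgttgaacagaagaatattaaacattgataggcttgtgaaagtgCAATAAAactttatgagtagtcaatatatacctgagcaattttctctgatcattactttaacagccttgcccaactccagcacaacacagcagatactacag
Enpep (chr3:129332700-129332999, minus strand): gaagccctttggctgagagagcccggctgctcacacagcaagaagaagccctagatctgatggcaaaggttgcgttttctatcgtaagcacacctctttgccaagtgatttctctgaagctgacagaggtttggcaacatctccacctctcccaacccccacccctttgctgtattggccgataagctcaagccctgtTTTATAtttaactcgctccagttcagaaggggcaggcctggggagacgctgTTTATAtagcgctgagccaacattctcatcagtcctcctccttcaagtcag
Mep1a (chr17:43502724-43503023, minus strand): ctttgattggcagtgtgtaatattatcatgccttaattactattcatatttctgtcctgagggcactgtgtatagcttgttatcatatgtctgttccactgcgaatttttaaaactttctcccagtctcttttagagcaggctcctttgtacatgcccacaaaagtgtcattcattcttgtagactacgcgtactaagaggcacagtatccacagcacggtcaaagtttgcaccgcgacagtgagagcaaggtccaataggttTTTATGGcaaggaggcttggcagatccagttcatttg
Anpep (chr7:79848161-79848460, minus strand): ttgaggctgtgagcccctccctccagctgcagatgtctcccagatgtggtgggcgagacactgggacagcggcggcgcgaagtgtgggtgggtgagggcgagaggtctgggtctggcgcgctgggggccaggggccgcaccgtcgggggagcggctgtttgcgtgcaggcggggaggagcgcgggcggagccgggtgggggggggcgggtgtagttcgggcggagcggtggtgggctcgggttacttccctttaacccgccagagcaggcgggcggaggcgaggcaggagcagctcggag
In the Sis window, 4 matches were found: an HNF1 match with its first base at -165, overlapping TATA box matches at -138 and -134, and a CDX match at -52 (the start is position 0). The Mep1a window had 1 CDX match, with its first base at 13, and the Enpep window had TATA box matches at -52 and -1. No motif matched in Vil1 or Anpep, which says only that these letters are not in their windows. Among the windows not shown, Mgam had TATA box matches at -30 and 36 and GATA matches at -208 and -66, and Lct had GATA matches at -101 and -90. Dpp4 had matches to the GATA, CDX, SOX and TATA box motifs. In all, HNF1 letters were in 1 of the 9 windows and in 7.1% of 32851 windows of the table. GATA letters were in 3 and in 11.2%, CDX in 3 and in 10.9%, and TATA box in 4 and in 13.6%. SOX letters were in 1 and in 12.6%, and HNF4 letters in none of the 9 and in 4.17%.

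Peaks on the kept chromosomes numbered between 81179 in E13 intestine and 135743 in colon, and median peak width was between 108 bp (E13 intestine) and 178 bp (forestomach). The lists hold no height or read count, so depth is unknown. All 5 epithelial markers (Epcam, Cdh1, Krt8, Krt18, Krt19) had a peak within 1 kb of a gene end in each library. Such peaks were found for 1 to 3 of 5 mesenchyme markers, 1 to 3 of 4 blood markers, 1 of 3 endothelial markers and 1 to 2 of 3 neural markers. Of these, Vim (mesenchyme), Spi1 (blood), Kdr (endothelial) and Ret (neural) had one in each library too. The share of all genes with such a peak was not counted, so the marker peaks cannot check the labels. Of the squamous markers Trp63, Krt5 and Krt14, E16 intestine and colon had such a peak at none, E13 intestine at 1, and the others at 2. A peak is no measure of expression, and the part of other cells in the values below was not tested.

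Of the 185 brush-border regions, 69 (37.3%, 30.7 to 44.5) had a peak in E16 intestine, against 28.9% of all 326695 regions. Colon had 75 (40.5%), which is near its 40.8% of all regions. In hindstomach 46 did (24.9%, 19.2 to 31.6) against 33.3%, and in forestomach 36 (19.5%, 14.4 to 25.8) against 26.1%. E13 intestine had 48 (25.9%) against 22.9%, and E13 stomach 42 (22.7%) against 28.2%. The KO stomach had 44 (23.8%, 18.2 to 30.4) against 31.8%. The interval lay above the share of all regions in E16 intestine, below it in forestomach, hindstomach and KO stomach, and around it in colon and both E13 libraries. With Mgam left out, E16 intestine had 34.0%, hindstomach 26.3%, forestomach 21.8% and KO stomach 26.9%. Each was nearer its share of all regions. Intervals were not recomputed, so the positions above and below may rest on Mgam. The genes did not share 1 pattern, as the counts per gene show.

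**Figure D1:**
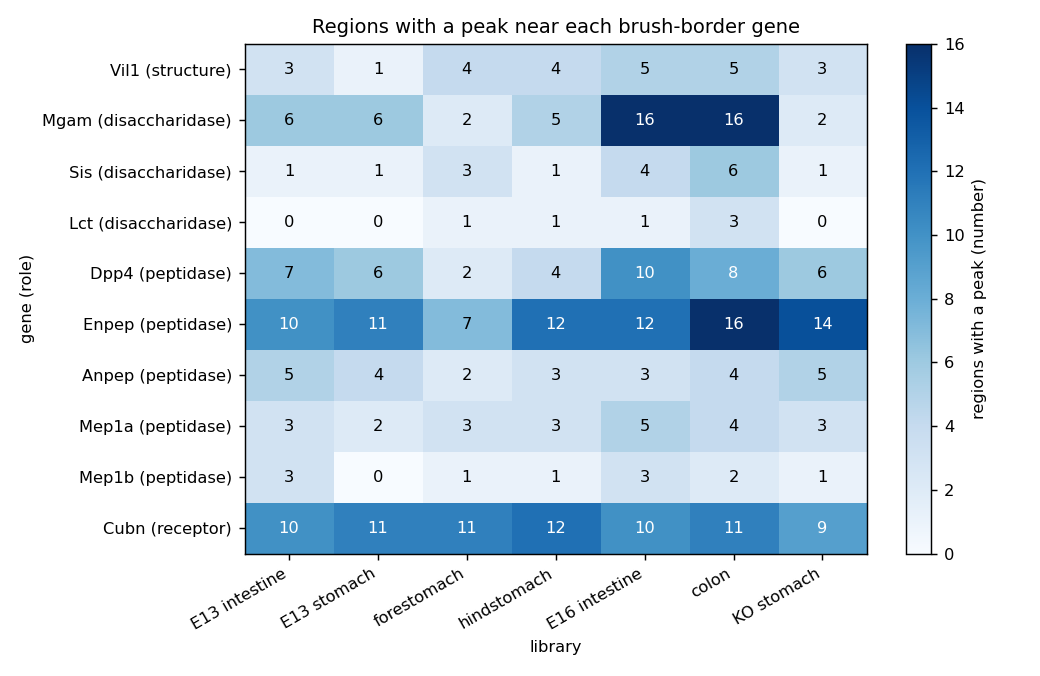
Number of merged regions with a peak (cell value and colour) near each of the 10 brush-border genes (rows, with role) in each of the 7 libraries (columns, 1 library each). Mgam has 16 regions in E16 intestine and in colon against 2 to 6 elsewhere, whereas Cubn has 9 to 12 in every library.

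The disaccharidases split dietary sugars: Mgam encodes maltase-glucoamylase, Sis sucrase-isomaltase and Lct lactase. Together they had 47 regions. E16 intestine held 21 of them (44.7%, 31.4 to 58.8), against 28.9% of all regions. Colon held 25 (53.2%, 39.2 to 66.7), against 40.8%. E13 intestine, E13 stomach and hindstomach held 7 each (14.9%, 7.41 to 27.7), forestomach 6 (12.8%) and KO stomach 3 (6.38%, 2.19 to 17.2). In that order, their shares of all regions were 22.9%, 28.2%, 33.3%, 26.1% and 31.8%. Mgam alone supplied 29 of the 47 regions and 16 of the 21 in E16 intestine. Without it, E16 intestine held 5 of 18 regions (27.8%, 12.5 to 50.9), colon 9, forestomach 4 (22.2%, 9.0 to 45.2), hindstomach 2 and the other 3 libraries 1 each. The high share in E16 intestine thus rested on Mgam. Colon had the highest count with and without it, but its interval contained its 40.8% of all regions each time.

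**Figure D2:**
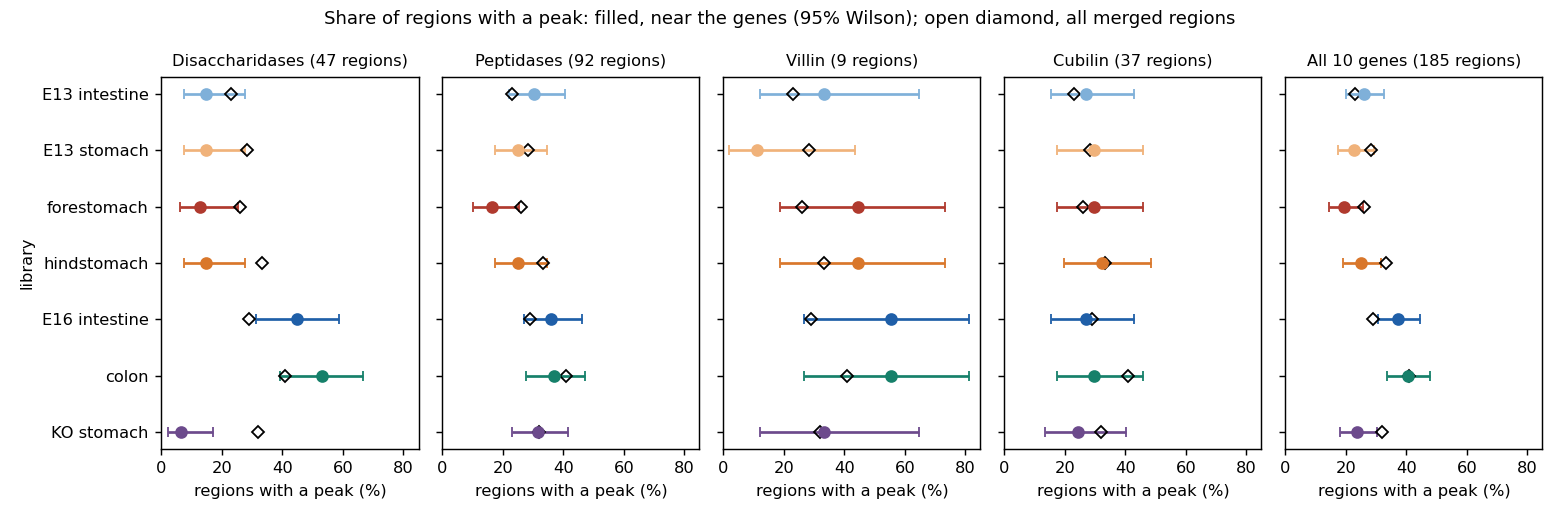
Percent of regions with a peak (x axis) in each library (y axis) for regions near the genes of each role (filled points, bars are 95% Wilson intervals) and for all merged regions (open diamonds). The disaccharidase regions stand at 44.7% in E16 intestine and 53.2% in colon against 6.38% to 14.9% in the other libraries. The disaccharidase intervals of colon and E13 intestine and every Cubn interval contain their diamonds.

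Mgam (chromosome 6, 40628831 to 40769123, 140.3 kb) had 29 regions, 22 of them in the gene body. It had 16 in E16 intestine, 16 in colon, 6 in E13 intestine, 6 in E13 stomach, 5 in hindstomach, 2 in forestomach and 2 in KO stomach. E16 intestine and colon were far above the rest and shared 10 of their regions. The widest shared region without a stomach peak lay 6.9 kb inside the gene (40635547 to 40635918), with peaks of 337 bp in E16 intestine and 321 bp in colon. A neighbouring region at 5.95 kb (40634671 to 40634888) had peaks in both E13 libraries, E16 intestine, colon and KO stomach, and none in forestomach or hindstomach. Beyond the 3′ end lay a group of 6 further regions, between 147 and 190 kb from the start. All 6 had a peak in E16 intestine or colon and 2 in E13 intestine, and no stomach library had a peak in any. Regions at 150 kb (40778537 to 40778768) and 190 kb (40818626 to 40818851) were present in E13 intestine, E16 intestine and colon. No library had a peak in the Mgam promoter window.
Sis (chromosome 3, 72888557 to 72967863, 79.3 kb) had 14 regions, 11 of them seen in a single library. It had 4 in E16 intestine, 6 in colon, 3 in forestomach, and 1 each in E13 intestine, E13 stomach, hindstomach and KO stomach. E16 intestine had a peak at the Sis start (72967805 to 72967892), and no other library had one. That peak was 87 bp wide, the smallest width in its list, which 16.4% of its peaks share. Further E16 intestine peaks without a partner lay at -29.9 kb, again of the smallest width (87 bp), and at -35.6 kb, 178 bp wide.
Lct (chromosome 1, 128284756 to 128328318, 43.6 kb) had 4 regions, all inside the gene: 3 in colon, 1 each in forestomach, hindstomach and E16 intestine, and none in the E13 libraries or KO stomach. The region at 4.82 kb (128323264 to 128323727) had a peak of 463 bp in E16 intestine and of 91 bp in colon. In human, a control element of the lactase gene lies inside the neighbouring MCM6, so regions there were looked up too: mouse Mcm6 (3.26 kb away) had 3 regions, with 1 or 2 in every library.

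**Figure D3:**
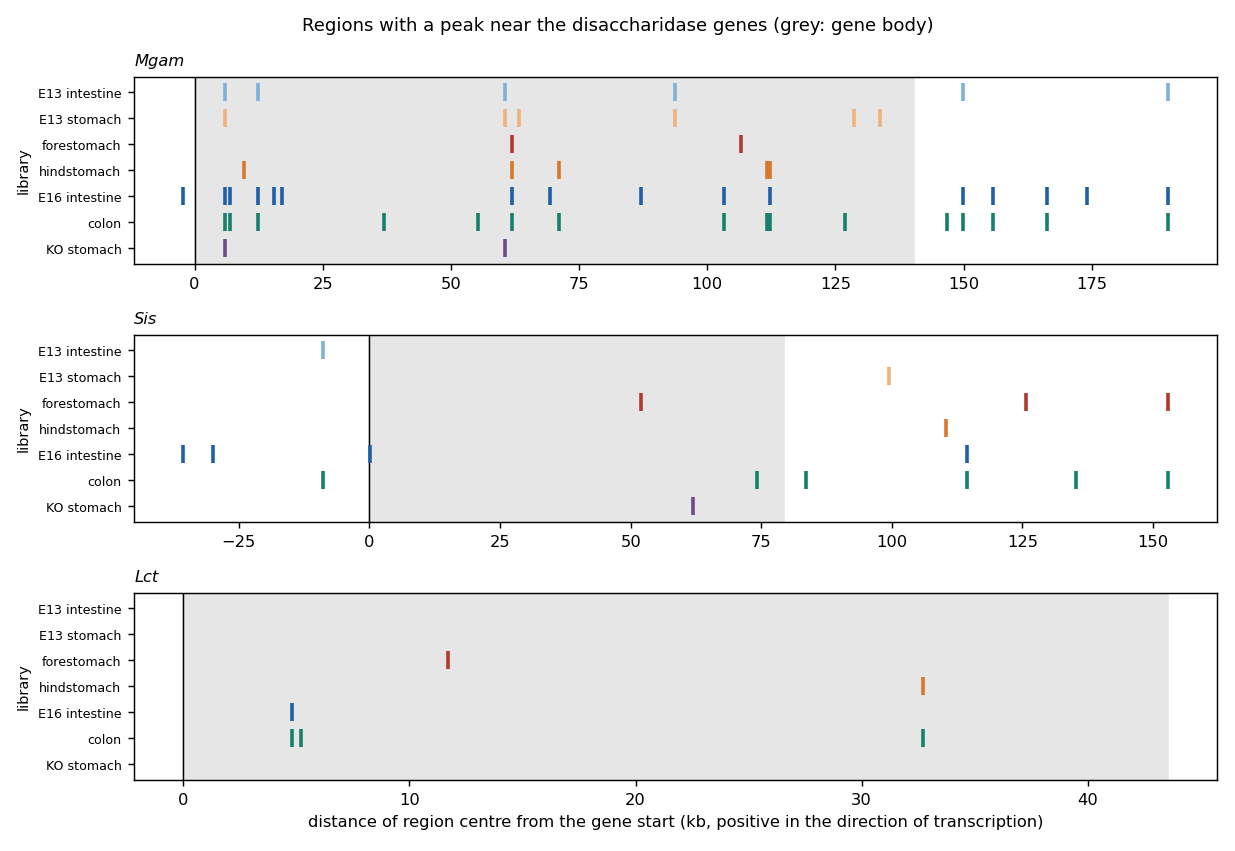
Regions with a peak (coloured ticks, 1 row per library) near Mgam, Sis and Lct by distance of the region centre from the gene start (x axis, kb, positive in the direction of transcription), with the gene body in grey. Around Mgam the rows of E16 intestine and colon are dense and hold 6 regions beyond the 3′ end, and at the start of Sis there is a tick in E16 intestine alone.

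Vil1 (chromosome 1, 74409384 to 74435560, 26.2 kb), which encodes villin, the actin bundler of microvilli, had 9 regions. There were 5 each in E16 intestine and colon, 4 each in forestomach and hindstomach, 3 each in E13 intestine and KO stomach, and 1 in E13 stomach. The libraries differed at the start site. The region over it (chromosome 1, 74409135 to 74409434) had a peak of 299 bp in E16 intestine, 269 bp in colon, 198 bp in KO stomach and 99 bp in E13 intestine. None of the 3 wild-type stomach libraries had a peak there, while KO stomach did. Just upstream, at -0.66 kb, 6 libraries had a peak, all but forestomach, with widths from 71 bp in KO stomach to 438 bp in E16 intestine. Inside the gene, regions at 5.97 kb and 25.4 kb were open in all 4 wild-type E16 tissues and in none of the E13 or KO libraries.

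The peptidase genes had 92 regions: 33 in E16 intestine (35.9%), 34 in colon (37.0%), 29 in KO stomach (31.5%), 28 in E13 intestine (30.4%), 23 each in E13 stomach and hindstomach (25.0%) and 15 in forestomach (16.3%, 10.1 to 25.2). Of these, the forestomach interval alone lay below the share of all regions (26.1%).
Dpp4 (chromosome 2, 62330073 to 62412315, 82.2 kb) encodes dipeptidyl peptidase 4, which trims dipeptides from peptide ends. Its 24 regions were found 10 times in E16 intestine, 8 in colon, 7 in E13 intestine, 6 each in E13 stomach and KO stomach, 4 in hindstomach and 2 in forestomach. All 7 libraries had a peak in a region inside the gene close to its start (62411467 to 62412143, with its centre at 0.426 kb). That region ends short of the promoter window, in which no library had a peak. Most of the others were not shared: 18 of the 24 regions were in a single library, 5 of them in E16 intestine and 5 in E13 intestine. A region at -8 kb (62420053 to 62420405) had peaks of 338 bp in E16 intestine and 298 bp in colon and none in the other libraries.
Enpep (chromosome 3, 129269177 to 129332749, 63.6 kb), the gene of glutamyl aminopeptidase, had the most regions, 40, of which 27 lay outside the gene body. Counts were 16 in colon, 14 in KO stomach, 12 each in hindstomach and E16 intestine, 11 in E13 stomach, 10 in E13 intestine and 7 in forestomach. Colon and KO stomach had the highest counts, and so there was no order from stomach to intestine. The start region (129332577 to 129332951) had a peak in E13 stomach, forestomach, E16 intestine, colon and KO stomach, and none in E13 intestine or hindstomach. Regions at 1.01, -28.1 and -61.3 kb had a peak in all 4 wild-type E16 tissues and in no E13 or KO library. Regions at 10.9, 75.7 and 76.3 kb ran the other way, with a peak in both E13 libraries and KO stomach and in no wild-type E16 tissue. The widest region, at -50.2 kb (507 bp), was missing from KO stomach alone.
Anpep (chromosome 7, 79821803 to 79848210, 26.4 kb) encodes aminopeptidase N. It had 13 regions: 5 each in E13 intestine and KO stomach, 4 each in E13 stomach and colon, 3 each in hindstomach and E16 intestine, and 2 in forestomach. At the start (79848106 to 79848392) peaks of 234 to 271 bp were found in both E13 libraries and KO stomach, and hindstomach had a narrower peak of 95 bp. Forestomach, E16 intestine and colon had none there. E16 intestine and colon had a pair of upstream regions that no other library had, at -3.52 kb (79851681 to 79851776) and -5.05 kb (79853146 to 79853376).
Mep1a and Mep1b encode the subunits of meprin, a metalloprotease of the brush border. Mep1a (chromosome 17, 43474324 to 43504143, 29.8 kb) had 8 regions: 5 in E16 intestine, 4 in colon, 3 each in E13 intestine, forestomach, hindstomach and KO stomach, and 2 in E13 stomach. Regions at -1.91 kb and -16.2 kb were open in all 7 libraries. The former lies 0.163 kb outside the gene body, whose 5′ end (43504143) is upstream of the listed start (43502773). The promoter window of the listed start, which does not reach that end, had a peak of 131 bp (43502731 to 43502862) in E16 intestine and in no other library. Mep1b (chromosome 18, 21072344 to 21100199, 27.9 kb) had 7 regions: 3 each in E13 intestine and E16 intestine, 2 in colon, 1 each in forestomach, hindstomach and KO stomach, and none in E13 stomach. The region at 21088052 to 21088329, inside the gene, had a peak of 277 bp in E16 intestine and of 62 bp in E13 intestine, the smallest width there. All 3 E13 intestine peaks at Mep1b had that smallest width.

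**Figure D4:**
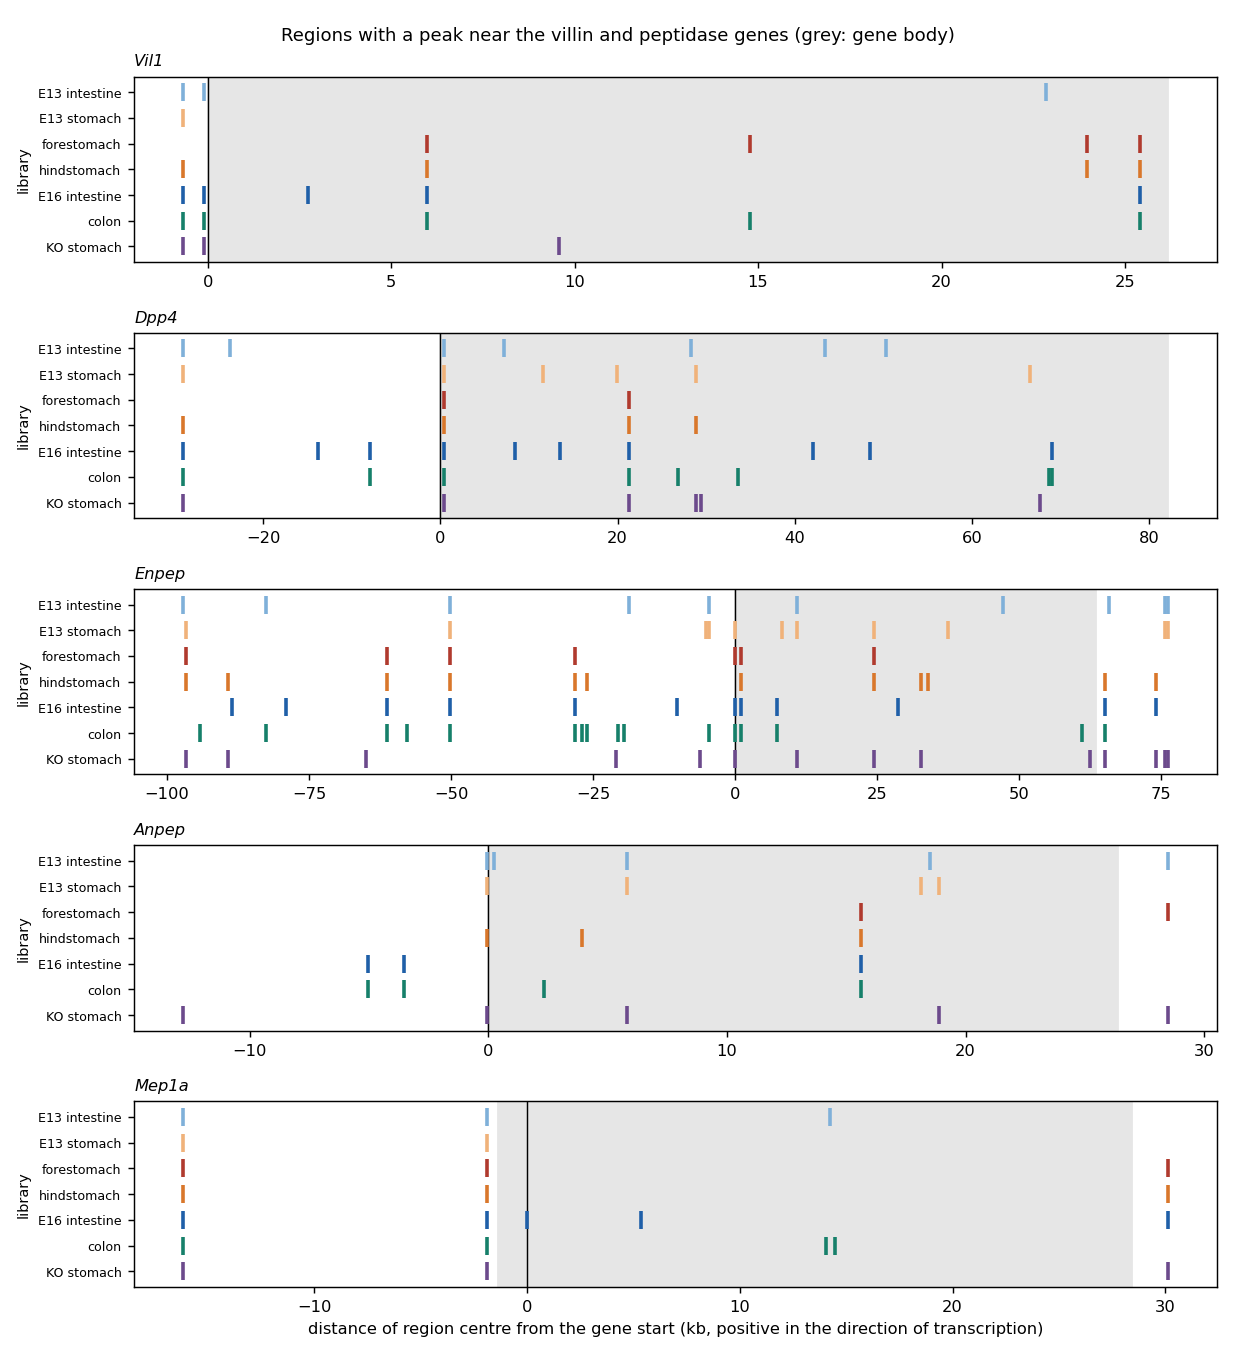
Regions with a peak (coloured ticks, 1 row per library) near Vil1, Dpp4, Enpep, Anpep and Mep1a by distance of the region centre from the gene start (x axis, kb, positive in the direction of transcription), with the gene body in grey. The Vil1 start has ticks in E13 intestine, E16 intestine, colon and KO stomach, and upstream of Anpep a pair of ticks is seen in E16 intestine and colon alone.

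Cubn (chromosome 2, 13276338 to 13491876, 215.5 kb) encodes cubilin, the receptor that takes up vitamin B12 bound to intrinsic factor. It is the longest gene of the group and had 37 regions, 36 of them in the gene body. The counts were nearly level: 12 in hindstomach, 11 each in E13 stomach, forestomach and colon, 10 each in E13 intestine and E16 intestine, and 9 in KO stomach. Level counts did not mean shared regions, since 19 of the 37 were in a single library and 1 in all 7 (at 119 kb, 13372148 to 13372797). Some regions within the gene were of stomach libraries alone and some of intestinal ones alone. Regions at 5.15 kb and 120 kb were open in E13 stomach, forestomach, hindstomach and KO stomach and in no intestinal library. A region at 12.5 kb (13479123 to 13479609) was open in E13 intestine, E16 intestine and colon and in no stomach library. The Cubn promoter window had a peak in KO stomach alone, of 71 bp, the smallest width in that list.

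At the 9 promoter windows together, E16 intestine had a peak at 4 (Vil1, Sis, Enpep, Mep1a), against 43.7% of 21044 windows of protein-coding genes. KO stomach had 4 too (Vil1, Enpep, Anpep, Cubn), against 61.4%. E13 intestine had 2 against 53.1%, E13 stomach 2 against 56.7%, colon 2 against 39.9%, hindstomach 1 against 50.6% and forestomach 1 against 46.9%. E16 intestine was thus close to its background, and the counts of forestomach and hindstomach were the lowest, at 1 each.

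The comparison of E16 intestine with the stomach parts asks how intestinal epithelium differs from stomach at the same age. Near the 10 genes 47 regions were in E16 intestine and not in hindstomach, 24 in hindstomach only, and 22 in both. The intestinal share of the unshared regions was 66.2% (54.6 to 76.1), against 43.0% over all regions. A gene was called towards a library where that library had at least 2 more regions of its own and at least 2-fold more (counts plus 0.5). Mgam (14 intestine-only, 3 hindstomach-only), Dpp4 (7 and 1), Sis (4 and 1), Mep1a (2 and 0) and Mep1b (2 and 0) were called towards intestine. That is 5 of 10, against 7.25% of 19086 protein-coding genes with a region in either library. None of the 10 was called towards hindstomach, against 21.0%. Without Mgam the share was 61.1% (33 and 21 regions), and 4 genes were called. Enpep was even at 6 and 6, and Cubn had 7 and 9.
Against forestomach 51 regions were in E16 intestine only, 18 in forestomach only and 18 in both, a share of 73.9% (62.5 to 82.8) beside 54.8% over all regions. Called towards intestine were Mgam (15 and 1), Dpp4 (8 and 0), Enpep (7 and 2), Mep1a (2 and 0) and Mep1b (2 and 0), 5 of 10 against 15.6% of genes. None was called towards forestomach, against 9.91%. Without Mgam the share was 67.9%. No interval was computed without Mgam, so whether this excess over 54.8% goes beyond counting error was not tested. Within gene bodies the share against forestomach was 68.2% (53.4 to 80.0), an interval that contains 54.8%. The gene-body interval against hindstomach (46.2 to 72.4) lay above 43.0%. The shares over all regions also count regions outside gene bodies. Both comparisons use the same intestinal library, and the way the epithelium was freed went with the tissue.
Between small intestine and colon, 30 regions were in intestine only, 36 in colon only and 39 in both. The intestinal share was 45.5% (34.0 to 57.4), an interval that includes 50% and lies above the 32.8% of all regions. None of the 10 genes was called towards intestine, against 5.63% of genes, and Lct alone towards colon (0 and 2), against 26.7%. With peaks within 100 bp merged, none was called towards colon. Mgam was even at 6 and 6. When each list was cut to its 81179 widest peaks, the length of the shortest list, the order turned, to 29 intestine-only and 21 colon-only regions (58.0%), with 2 genes called towards intestine and 0 towards colon. The shares over all regions and all genes were not recomputed for the cut lists, so this turn has no background beside it.

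**Figure D5:**
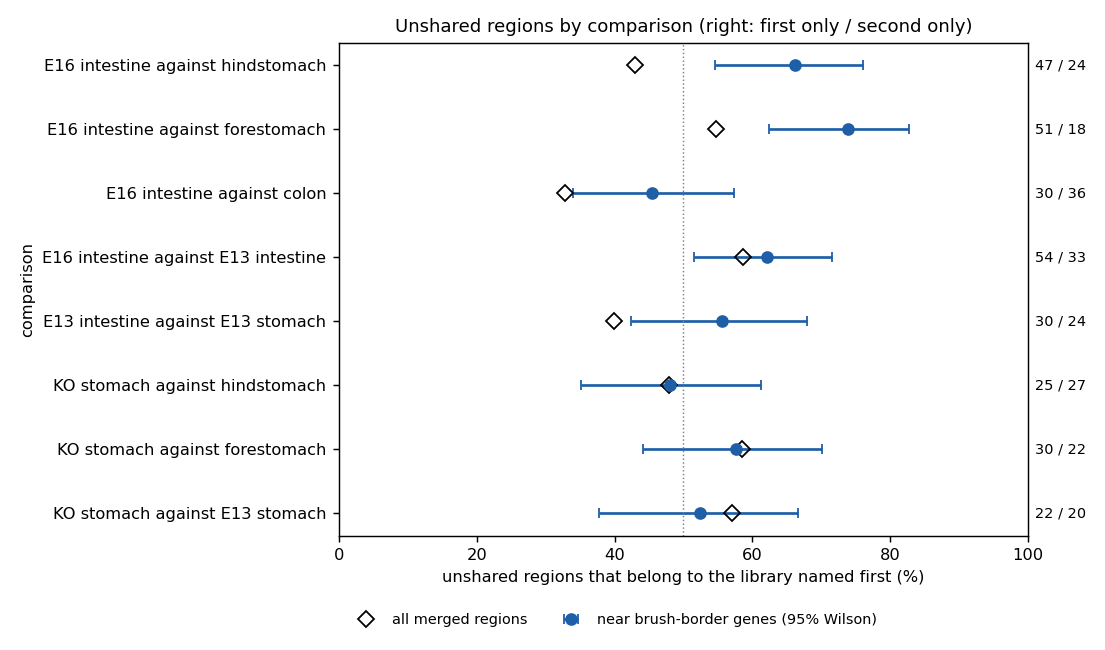
Percent of unshared regions that belong to the library named first (x axis) in each of the 8 comparisons (y axis), for regions near the 10 genes (points, bars are 95% Wilson intervals) and for all merged regions (open diamonds); numbers at the right are regions of the first and of the second library only. The points of E16 intestine against hindstomach (66.2%) and forestomach (73.9%) stand to the right of their diamonds (43.0% and 54.8%).

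The comparison of E16 with E13 intestine covers the time when villi form. Near the 10 genes 54 regions were found at E16 only, 33 at E13 only and 15 at both ages. The E16 share of 62.1% (51.6 to 71.5) was close to the 58.7% of all regions. Mgam (12 and 2), Sis (4 and 1), Vil1 (3 and 1) and Mep1a (3 and 1) were called towards E16, 4 of 10 against 20% of genes, and none towards E13, against 7.21%. With the 81179 widest peaks of each list 2 were called, and the share of all genes was not recomputed. The E13 cells were trypsin-digested and sorted. The E16 library was of proximal small intestine, while the E13 library is named only as intestine. Age, isolation and the part of the intestine thus cannot be told apart.
Stomach and intestine were also compared at E13. There were 30 regions in E13 intestine only, 24 in E13 stomach only and 18 in both, so the intestinal share was 55.6% (42.4 to 68.0) against 39.9% of all regions. Vil1 (2 and 0) and Mep1b (3 and 0) were called towards E13 intestine, 2 of 9 genes with a region, against 5.70%. None was called towards E13 stomach, against 20%. Away from gene ends 1 was called towards E13 intestine, and with the widest peaks 4 were. The shares of all genes were not recomputed for these settings. Lct had no region in either E13 library.

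The KO comparisons set the Sox2 knockout stomach against each wild-type stomach library. The stomach part and isolation of the KO library are not given, so genotype cannot be told apart from them. Against E13 stomach, age differs as well. KO stomach had 25 regions that hindstomach lacked, hindstomach 27 that KO lacked, and 19 were shared; the KO share was 48.1% (35.1 to 61.3), against 47.9% of all regions. Dpp4 was called towards KO stomach (2 and 0), 1 of 10 against 13.9% of genes, and Mgam towards hindstomach (2 and 5), 1 of 10 against 14.1%. Against forestomach 30 regions were in KO only, 22 in forestomach only and 14 in both, a share of 57.7% (44.2 to 70.1) beside 58.5%. Dpp4 (4 and 0), Enpep (11 and 4) and Anpep (4 and 1) were called towards KO, 3 of 10 against 25.1%, and Sis towards forestomach (1 and 3), 1 of 10 against 7.36%. With genes taken up to 50 or 20 kb away, or bodies extended by 10 kb, none was called towards forestomach, and with the widest peaks none towards hindstomach. Against E13 stomach 22 regions were in KO only, 20 in E13 stomach only and 22 in both (52.4%, 37.7 to 66.6, beside 57.1%). Vil1 was called towards KO (2 and 0), 1 of 9 against 23.8%, and Mgam towards E13 stomach (0 and 4), 1 of 9 against 8.45%. All 3 shares were thus close to those of all regions, and the 3 comparisons use the same KO library. The Jaccard index (shared regions over all regions of the pair) near the 10 genes was 0.344 with E13 stomach, 0.268 with hindstomach and 0.212 with forestomach, the same order as over all regions (0.399, 0.306 and 0.263).

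Sorted by the libraries that held them, 88 of the 185 regions (47.6%, 40.5 to 54.7) had a peak in an intestinal library (E13 intestine, E16 intestine or colon) and in no stomach library, against 34.6% of all regions. Regions of stomach libraries alone, KO included, numbered 51 (27.6%, 21.6 to 34.4) against 35.5%, and 46 (24.9%) were of both kinds, against 29.9%. Intestine-side regions were most numerous at Mgam (17), Enpep (16), Dpp4 (15) and Cubn (13). Stomach-side regions were most numerous at Cubn (15) and Enpep (12). Mep1a had 5 intestine-side regions and no stomach-side region.
Regions of E16 intestine alone numbered 27 (14.6%, 10.2 to 20.4) against 6.46% of all regions, with 6 at Mgam, 5 each at Dpp4 and Cubn and 4 at Enpep. Those of E16 intestine and colon and no other library numbered 11 (5.95%, 3.35 to 10.3) against 3.62%. Colon-alone regions numbered 25 (9.32% to 19.2% of the 185), against 16.9% of all regions. Of the peaks in E16 intestine alone, 9 of 27 (33.3%) had the smallest width of that list, close to the 35.5% over all such regions.
A further 8 regions (4.32%, against 3.38%) had a peak in all 4 wild-type E16 tissues and in neither E13 library nor KO stomach: 3 at Enpep, 2 at Vil1 and 1 each at Mgam, Anpep and Mep1b. In turn 6 regions (3.24%, 1.49 to 6.89, against 1.61%) had a peak in both E13 libraries and KO stomach and in no wild-type E16 tissue. Of these, 3 were at Enpep and 1 each at Mgam, Anpep and Cubn. Regions open in all 7 libraries numbered 4 (2.16%, against 4.46%): 2 at Mep1a and 1 each at Dpp4 and Cubn.

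Other brush-border genes were counted in the same way, from a list of structure genes and a list of enzyme and receptor genes. Of 17 further structure genes (such as Ezr, encoding ezrin, and Myo1a, encoding a microvillar myosin) 16 had a region in E16 intestine or hindstomach. Of these, 1 was called towards intestine and 2 towards hindstomach (Espn, 0 and 4, and Vill, 0 and 5), beside 7.25% and 21.0% of all genes. Their unshared regions were 65 intestine-only and 86 hindstomach-only, and the median log2 ratio was -0.25, against 1.16 for the 10 genes and 0 for all genes. Myo7b, a myosin of microvillus tip links, had 3 intestine-only and 0 hindstomach-only regions. Without a call, Myo5b, a myosin of apical membrane traffic, had 9 and 16, and Cobl, an actin nucleator, 7 and 13. Of 17 further enzyme and receptor genes, 16 had a region, 2 were called towards intestine and 2 towards hindstomach, with 29 unshared regions on each side and a median log2 ratio of 0. Enpp7, an alkaline sphingomyelinase, and Asah2, a neutral ceramidase, had 3 and 1 each. Tmprss15, enteropeptidase, had 2 and 5, and Mme, neprilysin, 0 and 2. Against forestomach, 7 of 17 enzyme and receptor genes were called towards intestine and 0 towards forestomach, with 34 and 19 unshared regions. The structure genes had 2 and 2 called of 16, with 77 and 73 unshared regions. Over all genes, 15.6% were called towards intestine and 9.91% towards forestomach. From E13 to E16 intestine the further structure genes had 9 called towards E16 and 3 towards E13 of 17, and the enzyme and receptor genes 4 and 0 of 16, beside 20% and 7.21% of all genes.

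Among 9796 other genes with at least 8 regions, 5 had a profile over the 7 libraries most like that of the 10 genes summed (each library's count as a share of all its regions). These were Nek2 (Pearson r = 0.97, 20 regions), Dnhd1 (0.95, 10), Hddc2 (0.95, 14), Gm45988 (0.95, 25) and Cyp3a41b (0.95, 16). The values describe 7 libraries that share regions and differ in list length. They are the highest of a search through 9796 genes, and how high r runs by such selection alone was not tested.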

How the data were processed

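The deposited files list chromosome, start and end of each peak and no other column, with no signal, score or count, so their unit is an other one, the position of a peak, and depth is unknown. Per the submitters' processing notes, cutadapt, Bowtie2, MACS2 and GRCm38/mm10 were used; no version, threshold or pooling is named there. Peak positions appear as the authors wrote them, since no source read here says if they start at 0 or 1. Peaks overlapping by at least 1 bp were merged, and each region went to the closest protein-coding gene of RefSeq (GRCm38.p6) up to 100 kb away, which placed 81.0% of them. Ties between overlapping genes went to the larger overlap, then the shorter gene. Gene ends span 1 kb around a gene's first and last base. The merging, assignment and calls were tested on simulated data. All 10 members are named; of 2 further brush-border lists, up to 3 genes per list leaning most to E16 intestine and 2 leaning most to hindstomach are named (by 2 regions or more). The members and lists were chosen with earlier results of these data known. Python 3.11.15, numpy 2.4.6, pandas 2.3.3 and matplotlib 3.10.9 were used.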

Additional observations from a re-analysis of the deposited data

How the results depend on the processing

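The shares per library, the shares of unshared regions and the counts of called genes were recomputed with peaks within 100 bp merged, nearest genes within 50 or 20 kb, gene bodies extended by 10 kb, genes of any type, the 81179 widest peaks of each list, gene ends left out, Cubn left out, or, chosen after seeing the data, Mgam left out. Role shares were recomputed for the disaccharidases alone, without Mgam, which gave 27.8% in E16 intestine and 5.56% in each E13 library; classes, promoters, further gene lists and likeness were not recomputed. For comparisons, sharing only where peaks overlap by 50% of the shorter and merging of the compared lists alone were added. Since the files hold no peak score, width stood in for strength. The shares over all regions and all genes were not recomputed for any setting, so the values below have no background. Of 88 recomputed shares of unshared regions 87 stayed within the interval of the reported value, and none of those whose interval lay to 1 side of 50% changed side. The E16 intestine share ran from 61.1% to 72.7% against hindstomach and from 67.9% to 81.5% against forestomach. With the widest peaks, colon had 32.5% of the regions near the 10 genes and the E16 intestine share against colon was 58.0%, with 2 genes called towards intestine. With them, genes called towards the library named first numbered 2 for E16 against E13 intestine, 4 for E13 intestine against E13 stomach, 2 for KO against hindstomach and 0 for KO against E13 stomach. Away from gene ends the last and E13 intestine against E13 stomach gave 0 and 1, and within 20 kb KO against hindstomach gave 2. Other counts towards the library named first stayed within 1.5 times. Towards the library named second, counts ranged from 0 to 2 for colon (reported 1) and for forestomach against KO (1), and from 0 to 1 for E13 stomach against E13 intestine (0), hindstomach against KO (1) and E13 stomach against KO (1); the others stayed at 0. No paired analysis was possible because each group is 1 library and no result comes from a test. The cause of these shifts was not tested. Unknown depth limits all counts.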
